A study of Drosophila melanogaster with 2 samples.

Results

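The genes described here are 37 Drosophila melanogaster genes of the cell cycle and of DNA replication, a fixed list matched by symbol to the Ensembl BDGP6 annotation, in which all 37 were found among 17683 genes on the 6 large chromosome arms. Binding of the CG2202 protein at these genes was read from chromatin immunoprecipitation followed by sequencing (ChIP-seq) of whole embryos aged 0 to 12 h, from a transgenic line that stably carries CG2202 fused at its C terminus to green fluorescent protein (GFP), precipitated with an antibody against GFP. The 2 samples formed 1 group, as biological replicates of this line, and no second condition was analysed here. Whole embryos mix all tissues, so strong binding in few cells and weak binding in many cannot be told apart. A peak belonged to a gene when its summit, the position of highest signal, lay in the gene body or within 500 bp of one of the gene's transcription start sites (TSSs). By this rule 133 of the 30000 pooled peaks belonged to the 37 genes, and 11 of these were among the 3571 peaks of the optimal IDR list. IDR, the irreproducible discovery rate, is a measure of how alike the replicates rank peaks. Here its list held exactly the pooled peaks down to rank 3571, so a listed peak need not rank alike in both replicates. Signal is the authors' own value for a peak and ranks are by signal within 1 list. Sequencing depth is not known from the peak lists, and the 2 replicates of 1 group allow no test between conditions, so the values below are descriptive.

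Cell division is driven by cyclin-dependent kinases (Cdks), which are active only with a cyclin partner and are held back by inhibitors and inhibitory phosphorylation. Before DNA is copied, the origin recognition complex (ORC) loads the ring of MCM helicase subunits onto chromatin with the help of the licensing factor Double parked. In Drosophila the first embryonic divisions run on maternal products, and zygotic transcription of genes such as stg then times the later divisions. E2F factors and the DNA replication-related element binding factor DREF are known activators of many replication genes in flies.

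Most of the 37 genes had a pooled peak at the promoter, but few had one in the optimal IDR list. A pooled summit lay within 500 bp of a TSS at 34 of 37 genes, 91.9%, against 48.8% of all genes and 53.5% of protein-coding genes. With a caller's q-value below 0.05 it was 27 of 37, 73.0%, against 39.9% of protein-coding genes. Counting the gene body too, the share was 35 of 37, 94.6%, against 54.7% of all genes and 59.7% of protein-coding genes. An optimal IDR summit lay within 500 bp of a TSS at 7 of 37 genes, 18.9%, against 12.2% of all genes and 14.1% of protein-coding genes. With the gene body included it was 9 of 37, 24.3%, against 15.9% of all genes and 18.3% of protein-coding genes, close to the background. Among genes with a pooled promoter summit, 20.6% of the 34 cell cycle and replication genes also had an optimal IDR promoter summit, against 26.4% of the 7456 protein-coding genes. The strongest pooled promoter peak had a median signal of 80.7 over the 34 genes, with a range from 33.0 to 233, and of 75.4 over the 7456 genes, with a range from 26.5 to 2324. The medians were close, and the highest promoter signal of the 37 genes was far below the highest of the genome. The median gene length was 2880 bp for the 37 genes and 2166 bp for protein-coding genes, a difference that was not taken out of the body counts.

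The sequences at 7 of the 11 optimal IDR summits of these genes are shown first, as the DNA under peaks of the shorter list, together with the promoter summits of Cdk2 and Orc5, which hold the octamer TATCGATA of the DRE, the DNA replication-related element. The windows of Cdk4, dpa and dup are not printed here. Each printed sequence is read from the RefSeq Release 6 genome, 5′ to 3′ on the strand of the gene, and covers 50 bases either side of the summit, shortened where an annotated UTR begins. Capitals mark a match to a searched word on either strand, which is TATAAA in CycG, aurA and aurB, TTTAAAAA in Mcm2, and TATCGATA in Cdk2 and Orc5.
CycE, chr2L:15747143-15747243, minus strand: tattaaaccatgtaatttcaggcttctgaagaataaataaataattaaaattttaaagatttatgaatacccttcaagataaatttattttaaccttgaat
CycG, chr3R:31609848-31609948, minus strand: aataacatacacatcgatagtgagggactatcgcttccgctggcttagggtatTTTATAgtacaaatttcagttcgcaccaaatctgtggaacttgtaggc
E2f1, chr3R:21641655-21641755, minus strand: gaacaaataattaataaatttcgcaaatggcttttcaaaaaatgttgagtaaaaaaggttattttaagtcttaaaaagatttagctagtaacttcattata
E2f1, chr3R:21627936-21628036, minus strand: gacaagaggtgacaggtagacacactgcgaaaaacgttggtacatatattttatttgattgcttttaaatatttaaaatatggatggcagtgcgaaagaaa
aurA, chr3R:11962831-11962931, plus strand: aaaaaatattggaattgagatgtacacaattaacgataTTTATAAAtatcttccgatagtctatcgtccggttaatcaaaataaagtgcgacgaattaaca
aurB, chr2L:10858218-10858318, minus strand: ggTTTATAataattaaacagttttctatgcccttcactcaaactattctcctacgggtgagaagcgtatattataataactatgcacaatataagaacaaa
Mcm2, chr3R:8264735-8264835, plus strand: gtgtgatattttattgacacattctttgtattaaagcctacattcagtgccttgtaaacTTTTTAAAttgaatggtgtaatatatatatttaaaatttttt
Cdk2, chr3R:20735493-20735593, plus strand: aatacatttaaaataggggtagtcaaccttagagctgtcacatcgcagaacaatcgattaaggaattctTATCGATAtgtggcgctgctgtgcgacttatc
Orc5, chr2L:13829742-13829809, plus strand: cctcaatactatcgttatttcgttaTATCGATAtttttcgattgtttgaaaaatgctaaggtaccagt

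GC content was 19.8% at the CycE summit, 21.8% and 33.7% at the E2f1 summits, 41.6% at CycG, 28.7% at aurA, 30.7% at aurB and 22.8% at Mcm2. At the summits not printed it was 42.6% and 28.7% at Cdk4, 28.7% at dpa and 41.6% at dup. Over all 11 optimal IDR summits of the 37 genes the median was 28.7%, with a range from 19.8 to 42.6%, against 32.7% over the 3571 summits of the list. The strongest pooled promoter summits of the 34 genes had a median GC content of 41.1%, against 41.6% over the 9662 pooled summits near any TSS. These sets are unlike, because the second holds every such summit and not only the strongest of each gene.

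**Figure D1:**
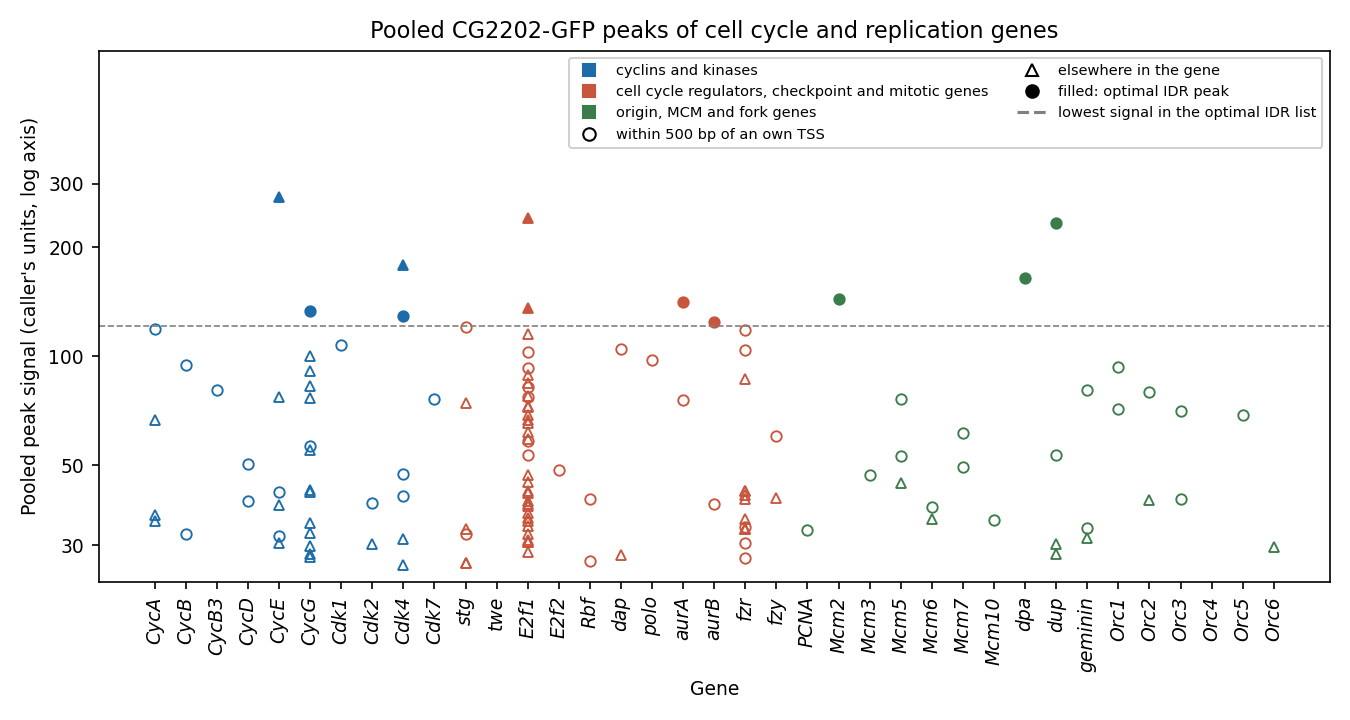
Signal of every pooled peak of the 37 genes, on a log axis in the caller's units, by gene and coloured by role, with circles within 500 bp of an own TSS, triangles elsewhere in the gene, and filled symbols for optimal IDR peaks. The 11 filled symbols lie above the dashed line at 120.9, the lowest signal in the optimal IDR list, and the highest are CycE at 275, E2f1 at 241 and dup at 233.

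Of the 10 cyclin and kinase genes, all 10 had a pooled promoter summit and 8 had one with a caller's q-value below 0.05, but 2 (CycG and Cdk4) had an optimal IDR promoter summit and CycE had one inside the gene. The promoter shares over protein-coding genes were 53.5%, 39.9% and 14.1%, so the optimal IDR count was near the background. The strongest peak of all 37 genes was that of CycE (FBgn0010382), the cyclin of S-phase entry. It lay in an intron at chr2L:15747162-15747321, 957 bp from the 5′ end of the gene and 583 bp upstream of an internal TSS, with a pooled signal of 275 and rank 956. The overlapping peak of replicate 1 had a signal of 107 and rank 1440, and that of replicate 2 a signal of 187 and rank 643, so this peak was within the top 3571 of both lists. The promoter windows of CycE itself held only weak peaks, the strongest with a pooled signal of 42.2, and replicate 2 had no summit there.

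CycG (FBgn0039858), a cyclin linked in flies to growth and metabolism, had its optimal IDR summit 83 bp upstream of an internal TSS at chr3R:31609698-31610097, with a pooled signal of 134 and rank 3076. Its strongest promoter peak ranked 5637 in replicate 1 with a signal of 47.2, and 2206 in replicate 2 with a signal of 90.8. It was thus high in replicate 2 and outside the top 3571 of replicate 1. Cdk4 (FBgn0016131), the partner kinase of Cyclin D in growth control, had 2 optimal IDR peaks. The stronger lay in an intron at chr2R:16583919-16584318, with a pooled signal of 179, rank 1344 in replicate 1 and rank 3660 in replicate 2. The other had its summit 381 bp upstream of a TSS at chr2R:16578889-16579288, with a pooled signal of 129, and the strongest promoter peak of the gene ranked 4640 in replicate 1 and 2932 in replicate 2. The replicates therefore favoured different Cdk4 peaks.

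The mitotic cyclin genes were weaker. CycA, whose product is the essential mitotic cyclin of the fly, had a pooled signal of 118.9 at a summit 135 bp downstream of its TSS, just under the lowest signal in the optimal IDR list, with rank 3199 in replicate 1 and 4657 in replicate 2. CycB had 94.5 at a summit 56 bp upstream, and the replicates differed, with rank 2903 in replicate 1 and 15314 in replicate 2. CycB3 had 80.7 at a summit 55 bp downstream, with rank 4739 in replicate 1 and 14461 in replicate 2. CycD, the partner of Cdk4, had 50.3, with rank 8840 in replicate 1 and 28708 in replicate 2, near the end of that list. All 4 ranked higher in replicate 1.

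Cdk1, the mitotic kinase gene, had a pooled promoter signal of 108 at a summit 208 bp upstream of its TSS, in a region it shares with mRpS7, a mitochondrial ribosomal protein gene. In replicate 2 the strongest Cdk1 promoter peak ranked 1787 with a signal of 104. In replicate 1 the strongest one ranked 16002 with a signal of 25.0, at a different summit, nearer to the Cdk1 TSS. Cdk7, the kinase that activates other Cdks and belongs to the general transcription factor TFIIH, had 76.3 between its TSS and that of snf, with rank 8945 in replicate 1 and 7363 in replicate 2. Cdk2, the partner kinase of Cyclin E, had 39.3, the lowest promoter signal among the cyclins and kinases.

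Among the 11 regulators, checkpoint and mitotic genes, 10 had a pooled promoter summit, 9 of them with a q-value below 0.05, and 2 had an optimal IDR promoter summit. These 2 were the Aurora kinase genes, which act on centrosomes and spindles (aurA) and on chromosomes and cytokinesis (aurB). The aurA (FBgn0000147) summit lay 243 bp upstream of its TSS and 76 bp upstream of that of CG3281, at chr3R:11962681-11963080, with a pooled signal of 141 and rank 2836. Its promoter peak ranked 6811 in replicate 1 with a signal of 42.2, and 2132 in replicate 2 with a signal of 92.6. The aurB (FBgn0024227) summit lay 174 bp upstream of its TSS and 268 bp upstream of that of Stam, at chr2L:10858068-10858467, with a pooled signal of 125 and rank 3410. In replicate 1 it ranked 16695 with a signal of 24.3, and in replicate 2 it ranked 1815 with a signal of 103. Both Aurora promoters were thus high in replicate 2 and well below the top 3571 in replicate 1.

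E2f1 (FBgn0011766), which encodes the activating E2F factor of the fly, is the longest of the 37 genes at 40568 bp and carried 35 pooled peaks, of which 19 had a q-value below 0.05. Its 2 optimal IDR summits were intronic. The stronger, at chr3R:21641505-21641904, lay 19166 bp from the 5′ end of the gene and had a pooled signal of 241 and rank 1227, with rank 907 in replicate 1 and 2103 in replicate 2. The other, at chr3R:21627786-21628185, lay 32885 bp from the 5′ end and had a pooled signal of 136, with rank 6381 in replicate 1 and 2013 in replicate 2. At the E2f1 promoters the strongest pooled peak had a signal of 103. The repressive factor gene E2f2 had 48.5 and Rbf, the retinoblastoma gene of the fly, 40.3, both lower than E2f1.

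**Figure D2:**
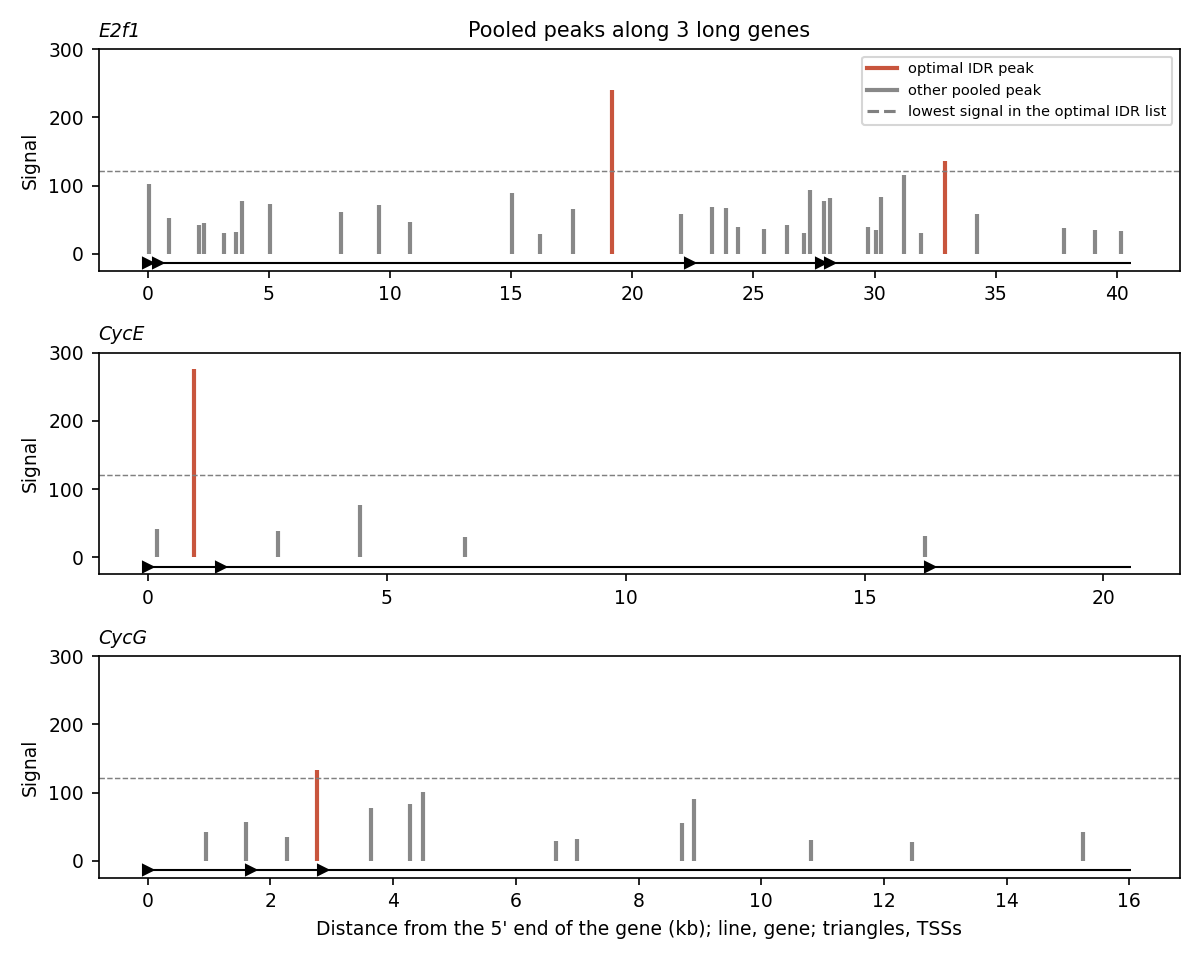
Pooled peaks along E2f1, CycE and CycG, with distance from the 5′ end of the gene in kb on the x axis and signal in the caller's units on the y axis, and triangles at the TSSs. The optimal IDR peaks stand at 241 and 136 in E2f1, 275 in CycE and 134 in CycG, and the other pooled peaks of these genes lie under the dashed line at 120.9.

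The promoters of stg and fzr fell just short of the optimal IDR list. The string gene stg, which encodes the phosphatase that activates Cdk1, had a pooled signal of 120.7 at a summit 7 bp upstream of its TSS, at rank 3590, where the list ends at 120.9 and rank 3571. It ranked 3014 in replicate 1 with a signal of 69.7 and 8357 in replicate 2 with a signal of 37.5. The fizzy-related gene fzr, an activator of the anaphase-promoting complex (APC), had 118.5 at a summit 106 bp upstream, with rank 2121 in replicate 1 and 10586 in replicate 2, and 14 pooled peaks in all. The Cdk inhibitor gene dap had 105 at a summit 90 bp downstream. Its strongest promoter peak ranked 3373 in replicate 1, near that summit, and 6512 in replicate 2, at another summit upstream of the TSS. The replicate 2 peak near the pooled summit ranked 7847. The promoters of stg, fzr and dap were all within the top 3571 of replicate 1 and outside it in replicate 2, the reverse of the Aurora genes. The Polo kinase gene polo had 97.4, with rank 6999 in replicate 1 and 4884 in replicate 2, and fzy, the mitotic APC activator, had 60.3 between its TSS and that of cni. The meiotic phosphatase gene twe had no pooled peak, and at its promoter replicate 2 alone had a summit, at rank 20037.

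Of the 16 origin, MCM and fork genes, 14 had a pooled promoter summit, 10 of them with a q-value below 0.05, and 3 had an optimal IDR summit, all at the promoter. Here too the promoter shares over protein-coding genes were 53.5%, 39.9% and 14.1%, with the optimal IDR count near the background. The strongest promoter peak of the 37 genes was that of dup (FBgn0000996), the gene of Double parked. Its summit lay 111 bp upstream of a TSS of dup and 1 bp from a TSS of SRPK, at chr2R:15380525-15380924, with a pooled signal of 233 and rank 1303. It ranked 799 in replicate 1 with a signal of 147, and 2026 in replicate 2 with a signal of 95.8, high in both. The promoter of dpa (FBgn0015929), which encodes the Mcm4 subunit, had a pooled signal of 164 at rank 2278, at chr2R:7499833-7500232, 112 bp downstream of a TSS of dpa and 114 bp upstream of one of didum. It ranked 2600 in replicate 1 with a signal of 76.3 and 2681 in replicate 2 with a signal of 79.9. Mcm2 (FBgn0014861) had 144 at rank 2755, at chr3R:8264585-8264984, in the region between Mcm2 and RPA1, a subunit gene of the single-stranded DNA binding protein RPA, with the summit 185 bp upstream of the Mcm2 TSS and 334 bp upstream of the RPA1 TSS. It ranked 6319 in replicate 1 with a signal of 44.0 and 1884 in replicate 2 with a signal of 101.

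The other helicase subunit genes had weaker promoter peaks. The pooled signal was 76.3 at Mcm5, 61.4 at Mcm7, 46.8 at Mcm3, 38.2 at Mcm6 and 35.2 at Mcm10, whose product helps to start the fork. Mcm6 and Mcm10 had no promoter summit in replicate 1, and ranked 12848 and 11890 in replicate 2. The subunits of the MCM ring therefore spanned pooled ranks from 2278 for dpa to 18389 for Mcm6. PCNA, the gene of the sliding clamp and a standard target of E2F and DREF in flies, had the weakest promoter peak of the 34 genes, with a pooled signal of 33.0 at rank 22419 and a q-value above 0.05. Geminin, the inhibitor of Double parked, is encoded by geminin, which had 80.7 at a summit 1 bp upstream of its TSS, with rank 16864 in replicate 1 and 6461 in replicate 2.

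No ORC gene had an optimal IDR peak. The pooled promoter signal was 93.4 at Orc1, 79.8 at Orc2, 70.5 at Orc3 and 68.9 at Orc5. The strongest Orc1 promoter peak ranked 5508 in replicate 1 and 5571 in replicate 2, but these were different peaks. In replicate 2 the summit lay 153 bp downstream of the TSS, and in replicate 1 just upstream of it. The Orc5 promoter, shared with Arpc1, ranked 3838 in replicate 2 and had no summit in replicate 1. Orc4 had no pooled peak, and its promoter had a summit in replicate 2 at rank 24197. Orc6 had 1 pooled peak, in a coding exon, with a signal of 29.6, and its promoter had a summit in replicate 1 at rank 26977. In replicate 2 the peak of Orc6 was in the coding exon, at rank 20946.

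The replicates ranked different promoters of these genes highest. The top 3571 peaks of replicate 1 had a summit at the promoter of 7 of 37 genes, 18.9%, against 12.4% of protein-coding genes, and those of replicate 2 at 8 of 37, 21.6%, against 15.8%. The genes in both sets were dpa and dup, 28.6% of the 7 and 25.0% of the 8, whereas 1291 protein-coding genes were in both sets, 74.4% of the 1736 of replicate 1 and 58.8% of the 2197 of replicate 2. CycA, CycB, stg, dap and fzr were in that of replicate 1 alone, and CycG, Cdk1, Cdk4, aurA, aurB and Mcm2 in that of replicate 2 alone. All 7 genes with an optimal IDR promoter summit were in the set of replicate 2, and 2 of them in that of replicate 1. Over protein-coding genes the shares were 88.8% and 75.4%. The strongest promoter peak of the 37 genes had pooled rank 1303. Of the 1000 optimal IDR peaks of highest signal, 0 had a summit at a promoter of the 37 genes, against 4.39% of protein-coding genes with one. A peak nearer to the cut at rank 3571 can leave 1 of the sets more easily. The part of this in the lower overlap was not tested.

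**Figure D3:**
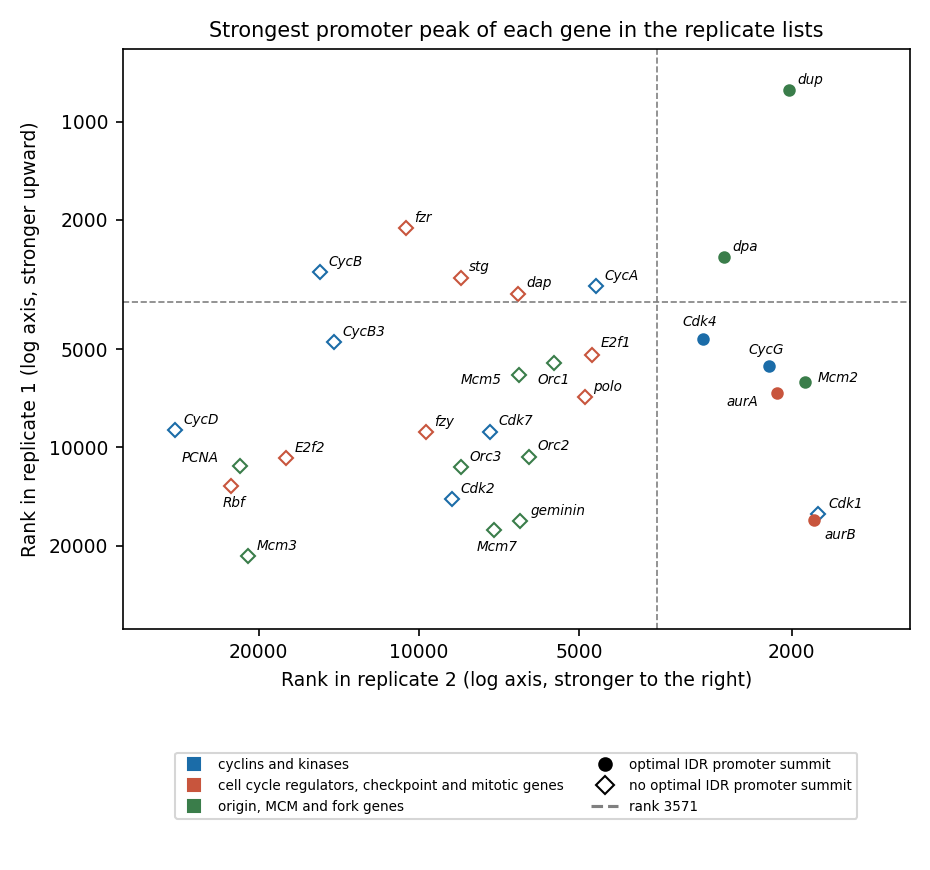
Rank of the strongest promoter peak of each gene in replicate 2 (x axis) and replicate 1 (y axis), on log axes with stronger peaks to the right and upward, for the 30 genes with a pooled promoter summit and a promoter summit in both replicate lists. The dashed lines mark rank 3571, and dpa and dup alone lie above both lines.

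Base composition and promoter layout moved with this split. The pooled promoter summits of the 5 genes in the top set of replicate 1 alone had a GC content from 40.6 to 52.5%, with a median of 41.6%, and 0 of 5 had a TSS of the other strand within 500 bp. Those of the 6 genes in the set of replicate 2 alone had 22.8 to 41.6%, with a median of 28.7%, and 4 of 6 had such a TSS, at Cdk1, aurA, aurB and Mcm2. Over protein-coding genes the median GC content was 43.6% for the 436 with a pooled promoter summit in the set of replicate 1 alone and 30.7% for the 890 of replicate 2 alone, and 38.5% and 64.0% of these had a TSS of the other strand. The same order was therefore present across the genome. The part of GC content in the difference between replicates was not tested.

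Summits lay mostly upstream of the TSS. Of the 34 genes, 26 had their strongest pooled promoter summit upstream, 76.5%, against 69.2% of the 7456 protein-coding genes, and the median position was 95 bp upstream for the 34 genes and 79 bp upstream for protein-coding genes. A TSS of the other strand lay within 500 bp of the summit at 16 of 34 genes, 47.1%, against 43.9%. Of these 16, 5 had an optimal IDR promoter summit (aurA, aurB, Mcm2, dpa and dup), 31.2%, and of the other 18, 2 did (CycG and Cdk4), 11.1%. For protein-coding genes the shares were 33.5% and 20.7%. At aurA, aurB and Mcm2 the summit lay upstream of both genes, at dpa it lay just inside dpa, and at dup it lay between 2 TSSs of dup and 1 bp from a TSS of SRPK. Each of these 5 peaks lies near the TSSs of both genes, and the lists do not tell to which gene it belongs.

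**Figure D4:**
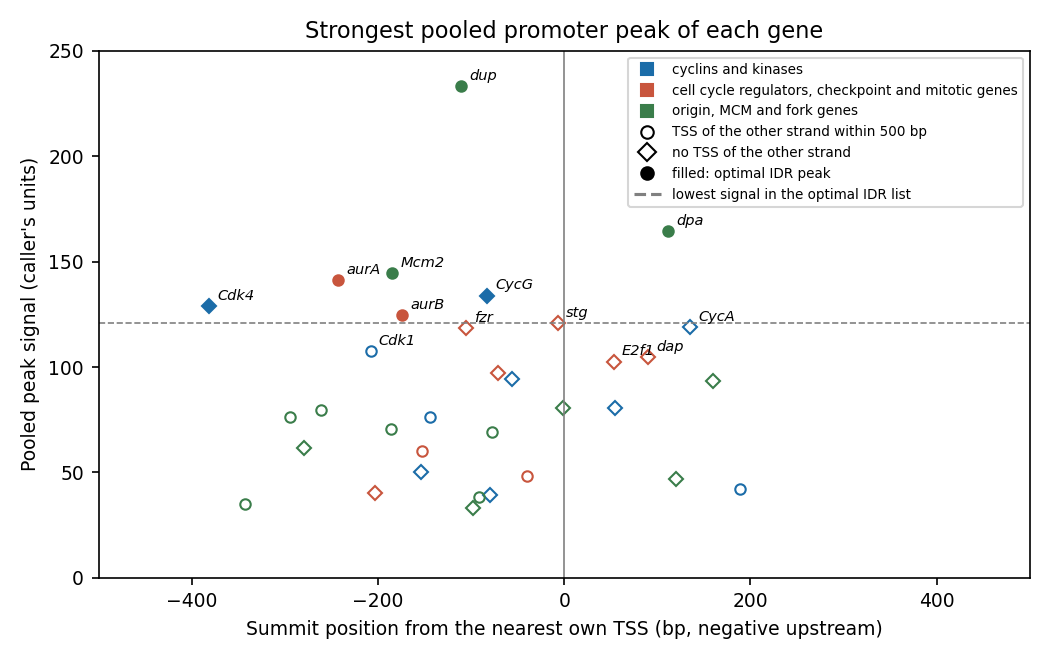
Position of the strongest pooled promoter summit of each of the 34 genes from the nearest own TSS in bp, negative upstream (x axis), against pooled signal in the caller's units (y axis), with circles where a TSS of the other strand lies within 500 bp and filled symbols for optimal IDR peaks. Of the 7 filled symbols, 6 lie upstream, with dpa at 112 bp downstream the exception, and stg at 120.7 lies at the dashed line of 120.9.

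Words known from replication gene promoters were searched on both strands, in the 101 bases around summits and from 250 bases before to 50 bases after each TSS. The DRE octamer TATCGATA was in 0 of the 11 optimal IDR windows of the 37 genes, and in 1.15% of all optimal IDR windows. It was in the window of the strongest promoter peak at Cdk2, Orc3 and Orc5, 3 of 34, and the Cdk2 peak had a q-value above 0.05. Over all pooled windows the share was 1.04%, but only 32.2% of pooled summits were near a TSS, so these sets are unlike. The share over pooled promoter windows alone was not computed. In the promoter windows it was found at 7 of 37 genes, CycA, Cdk2, Cdk4, PCNA, Orc2, Orc3 and Orc5, 18.9%, against 10.2% of protein-coding genes. The E2F-type word TTTGGCGC was in the promoter windows of 10 of 37 genes, 27.0%, against 3.16%. TTTCCCGC was at Mcm2, Mcm3 and dpa, 8.11% against 1.99%, and TTTCGCGC at CycG and Orc6, 5.41% against 1.62%. Counting these 3 words together, 14 of 37 genes held at least 1, 37.8%, against 6.54% of protein-coding genes, and in 0 genes did matches of different E2F-type words overlap. None of the 3 was within 50 bases of any of the 11 optimal IDR summits or of the 34 strongest promoter summits. These words were rare at summits in general. TTTGGCGC, TTTCCCGC and TTTCGCGC were in 0.476%, 0.42% and 0.224% of all optimal IDR windows, and in 0.56%, 0.463% and 0.273% of all pooled windows. With shares this low, their absence from so few windows is near the background. The 37 genes had a mean of 1.65 TSSs each and protein-coding genes 1.41, and all windows of a gene were searched.

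Of the remaining words, the motif 1 octamer GGTCACAC, known as the site of M1BP, was in the promoter windows of 8 of 37 genes, 21.6% against 8.71%, the GAGA word GAGAGAG in 4, 10.8% against 9.09%, and the E-box CACGTG in 0, where 5.34% of protein-coding genes held it. All 3 were absent from the 11 optimal IDR windows, and they were in 0.952%, 1.26% and 0.728% of all optimal IDR windows. Among the windows of the 34 strongest promoter summits, GGTCACAC and GAGAGAG were in 0 and CACGTG was in 1, at Orc2. That summit lay 261 bp upstream of the Orc2 TSS, and the word there fell outside the promoter window. The TATA word TATAAA was in 3 of the 11, at CycG, aurA and aurB, against 22.5% of all optimal IDR windows and 13.8% of all pooled windows, and in the promoter windows of 59.5% of the 37 genes and 51.3% of protein-coding genes. The AT-rich word TTTAAAAA was in 1 of the 11, at Mcm2, against 6.30% of all optimal IDR windows, and in the promoter windows of 32.4% of the 37 genes against 16.5%.

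A wider list of 63 further genes of replication, checkpoints and mitosis was read in the same way. An optimal IDR summit lay at the promoter of 12 of the 63, 19.0%, against 14.1% of protein-coding genes, and in the gene or promoter of 15, 23.8%, against 18.3%. A pooled promoter summit lay at 54, 85.7%, against 53.5%. The strongest peak was in an intron of chif, which encodes the activator of the replication kinase Cdc7, with a pooled signal of 950 at rank 43, rank 53 in replicate 1 and rank 54 in replicate 2. It was higher than any peak of the 37 genes. It was followed by the promoters of Cdc16, an APC subunit gene whose summit is shared with orb (414), of RnrS, the small subunit gene of ribonucleotide reductase (322), and of Dp, the partner of E2F factors (282). Next came an intron of trbl, which encodes an inhibitor of String (234), and the promoters of Cdk12 (232), p53 (222) and Cdc7 itself (215). The optimal IDR peaks of the checkpoint kinase genes grp, mei-41 and tefu had 199, 198 and 171, that of the spindle checkpoint gene mad2 187, and those of Prim1, RPA1 and Bub3 147, 144 and 141. The RPA1 peak is the same as the Mcm2 peak. Of the 12 optimal IDR promoter summits, only those of p53 and mad2 had no TSS of another gene within 500 bp. Such a TSS was that of CG34231 at RnrS, lncRNA:CR43918 at Dp, SAK at Cdk12 and CG3226 at Cdc7. It was that of TH1 at mei-41, Hsc70-4 at tefu, CG7083 at Prim1 and Cap-D2 at Bub3. The grp peak also lay near a TSS of CG31807. The lists do not tell to which gene such a peak belongs. CG2202 itself had 1 optimal IDR summit, 59 bp upstream of a TSS, with a signal of 125 and rank 3386. It ranked 5249 in replicate 1, outside the top 3571, and 2458 in replicate 2.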

How the data were processed

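Embryos of 0 to 12 h were profiled in 2 replicates, with fragments of 200 to 800 per the labels. Notes deposited with the lists state that the authors made each replicate list on dm6 from 1 replicate's alignment with a control alignment. The pooled list came from both replicate alignments with that control, and the optimal IDR list from those 3 lists. Neither aligner, caller nor IDR cutoff was given in the sources used here. The deposited signal value, whose scale is not stated, ranked peaks within a list. The deposited −log10 q-value was used only as q below 0.05, which 13201 of 30000 pooled peaks met. The deposited summit offset (other unit) gave positions. Depth per sample is unknown, so no interval was computed.

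Genes and TSSs came from Ensembl release 115, limited to 17683 genes with FlyBase identifiers, 13945 of them protein-coding, on arms whose lengths in the RefSeq Release 6 sequence contain all peaks. No statistical test was run. Genes and lists were chosen with earlier results of these data known. Named were all 37 genes, the other cell cycle genes with an optimal IDR peak, some but not all of the genes sharing a summit, and CG2202. Of the 65 symbols of the wider list, 10 were matched through older symbols and 63 genes remained after repeats. Alternatives were TSS windows of 250 and 1000 bp, a list of 1000 peaks, a q-value filter, any-base overlap, and each replicate alone. Python 3.11.15, numpy 2.4.6 and matplotlib 3.10.9 were used, and gene assignment was tested on simulated peaks.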

Additional observations from a re-analysis of the deposited data

How the results depend on the processing

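With the 1000 optimal IDR peaks of highest signal in place of 3571, 1 of the 37 genes, CycE, had a summit in the gene or promoter, against 9 with the full list, and 0 had one at the promoter, against 7. The shares were then 2.70% of the 37 genes against 6.23% of protein-coding genes, and 0% against 4.39% at the promoter, below the background where the full list put them above it. Of the 37 genes only the CycE peak remained, since the next, in E2f1, had rank 1227. The protein-coding shares fell with the shorter list too. The change of order rests on few genes and was not tested. With TSS windows of 250 and 1000 bp, the promoter count was 6 and 8, and the count with the gene body was 9 in both. Counting any base of a peak gave 7 and 9. With the top 3571 peaks of 1 replicate alone, the promoter count ranged from 7 to 8 and the count with the gene body was 10 for each replicate, but the genes differed, and dpa and dup alone were at the promoter in both. The pooled promoter count of 34 was 27 with q below 0.05 (73.0% against 39.9% of protein-coding genes), and from 32 to 35 in 1 replicate alone. The pooled count with the gene body, 35, was 28 with q below 0.05 (75.7% against 44.4%) and from 35 to 37 in 1 replicate alone. No paired analysis was possible because the 2 replicates form 1 group and no group is compared with another. Depth is unknown, so a gene without a peak was not shown to be unbound.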
